A study of Mus musculus with 35 samples.

Results

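CD8 T cells left unstimulated after sorting were compared between the brain and the spleen of aged male C57BL/6 mice. The libraries are those whose titles name aged male brain without stimulation (6 libraries, replicates 7 to 12) or aged male spleen without stimulation (5 libraries, replicates 30 to 34), 11 of the 35 RNA sequencing libraries of the series. All 11 samples carry the labels C57BL/6, male and aged, no transgene or deletion is named, and the labels give no age in months. The cells had been sorted as CD3e+CD8+CD44hiCD62Llo. These surface proteins mark CD8 T cells that have met antigen and have left the naive and central memory pools. The protocol text of every sample describes 2 h with PMA and ionomycin, drugs that activate T cells past their receptor. The treatment label of these 11 reads NoStim, and how unstimulated cells were held before lysis is not given. The comparison asks how CD8 memory cells of the old brain differ from those of the spleen before any stimulation. Whether replicates came from single, pooled or even separate animals is not said. The p-values therefore cover the spread among these samples, part of which may be technical.

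Memory CD8 T cells that settle in a tissue differ from those that circulate in which exit and retention receptors they carry. Resident cells keep CD69 and adhesion molecules such as E-cadherin and lose the sphingosine-1-phosphate receptors and the factor KLF2, which together drive exit into blood and lymph. Signals through the T cell receptor, and also cell isolation and warming, are known to induce the immediate early genes within minutes, among them the NR4A nuclear receptors, the AP-1 and EGR factors and the brakes on MAP kinase and NF-kB signalling. Heat shock chaperones are induced when proteins misfold.

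Brain libraries held 10.3 to 24.97 M counts in 8979 to 10756 detected genes, and spleen libraries 8.999 to 14.7 M counts in 14750 to 15174 genes. Both kinds of library stood apart in several measures besides tissue. At a common depth of 8 M counts, the expected number of genes detected was 8632 to 10030 in brain and 14549 to 14930 in spleen. Mitochondrial genes took 9.32 to 10.5% of counts in brain and 10.8 to 13.3% in spleen. Replicates ranked genes less alike in brain, with a median Spearman correlation of 0.839, than in spleen, with 0.907. Brain replicates 8 and 9 lay far from the other brain libraries on the first 2 principal components, on opposite sides of the second, so each count below was also taken without them. Brain titles are written with hyphens and spleen titles without, and the mean fragment length in the deposited files was 180 to 196 bases in brain and 156 to 171 bases in spleen. Tissue and preparation cannot be told apart. All 6 genes of the CD8 T cell list (Cd3e, Cd3d, Cd3g, Cd8a, Cd8b1 and Trac) were detected in every library. They summed to 3315 to 5054 CPM in brain and 1957 to 2633 CPM in spleen. Cd44, whose protein the sort used, averaged 227 CPM (SD 103) in brain and 199 CPM (SD 19.2) in spleen. Levels are given as CPM, reads relative to a library total adjusted by TMM, a scaling that assumes most genes do not change.

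Genes called higher and genes called lower in brain differed in level. With edgeR's quasi-likelihood test at a Benjamini-Hochberg adjusted p of 0.05, 814 of 11040 genes differed (7.37%). Of these, 370 were higher in brain (3.35%) and 444 were lower (4.02%). Of the 370 higher genes, 329 averaged at least 100 CPM in brain, and their median size of change was 1.66 on the log2 scale. Of the 444 lower genes, 12 averaged at least 100 CPM in spleen, and the median spleen level was 3.12 CPM. As many as 418 of the lower genes had 0 counts in at least 1 brain library and 214 had 0 counts in all 6. Of the 370 higher genes, 1 had 0 counts in a brain library. Of all genes tested, 4040 (36.6%) had 0 counts in at least 1 brain library. In bulk RNA, fewer cells that express a gene and less RNA per cell cannot be told apart. At a common depth brain libraries also held fewer genes, 8632 to 10030 against 14549 to 14930 in spleen. Whether the zeros follow from that was not tested. All brain libraries lay above all spleen libraries for 368 of the genes tested (3.33%) and below them for 791 (7.16%). Among called genes, 276 of the 370 higher and 441 of the 444 lower had no overlap. A lack of overlap in a called gene below therefore describes its libraries and adds little to the call. Without brain replicates 8 and 9 the counts were 627 higher (5.41%) and 979 lower (8.45%) of 11579 genes tested, and 337 of the 370 and 435 of the 444 were among them. Over all genes tested, the log2 fold change had a median of 0.31. It was 0.54 for genes that averaged at least 10 CPM over both tissues and 0.63 for those of at least 100 CPM, and with library totals in place of TMM it was -0.24. Under library totals 139 genes were higher (1.26%) and 516 lower (4.67%), and DESeq2, with its own filter and size factors, called 670 higher (5.15%) and 1744 lower (13.4%) of 13014. In the groups below, counts under library totals are given where they differ. Most higher calls were of genes at 100 CPM or more in brain, and 1568 genes tested averaged at least 100 CPM over both tissues. The share called higher among abundant genes is therefore above 3.35%, and no share matched for level was taken. Gene lists of 34 kinds were read against the edgeR shares over all genes, which limits the reading of lists of abundant genes. In 25 of them, with 455 members tested, no member fell by edgeR's test, 2 members were lower at an unadjusted p under 0.05 and 5 were called lower by DESeq2.

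**Figure D1:**
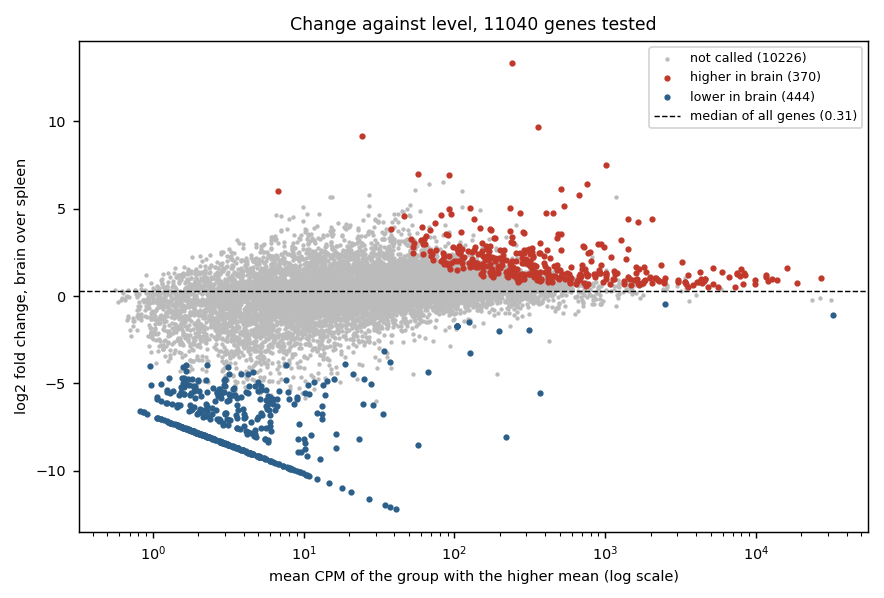
Log2 fold change of brain over spleen against the mean CPM of the group with the higher mean, on a log axis, for 11040 genes, each point a gene. The 370 genes higher in brain sit mostly above 100 CPM with modest changes, and the 444 lower genes sit mostly near 3.12 CPM with large ones.

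**Figure D2:**
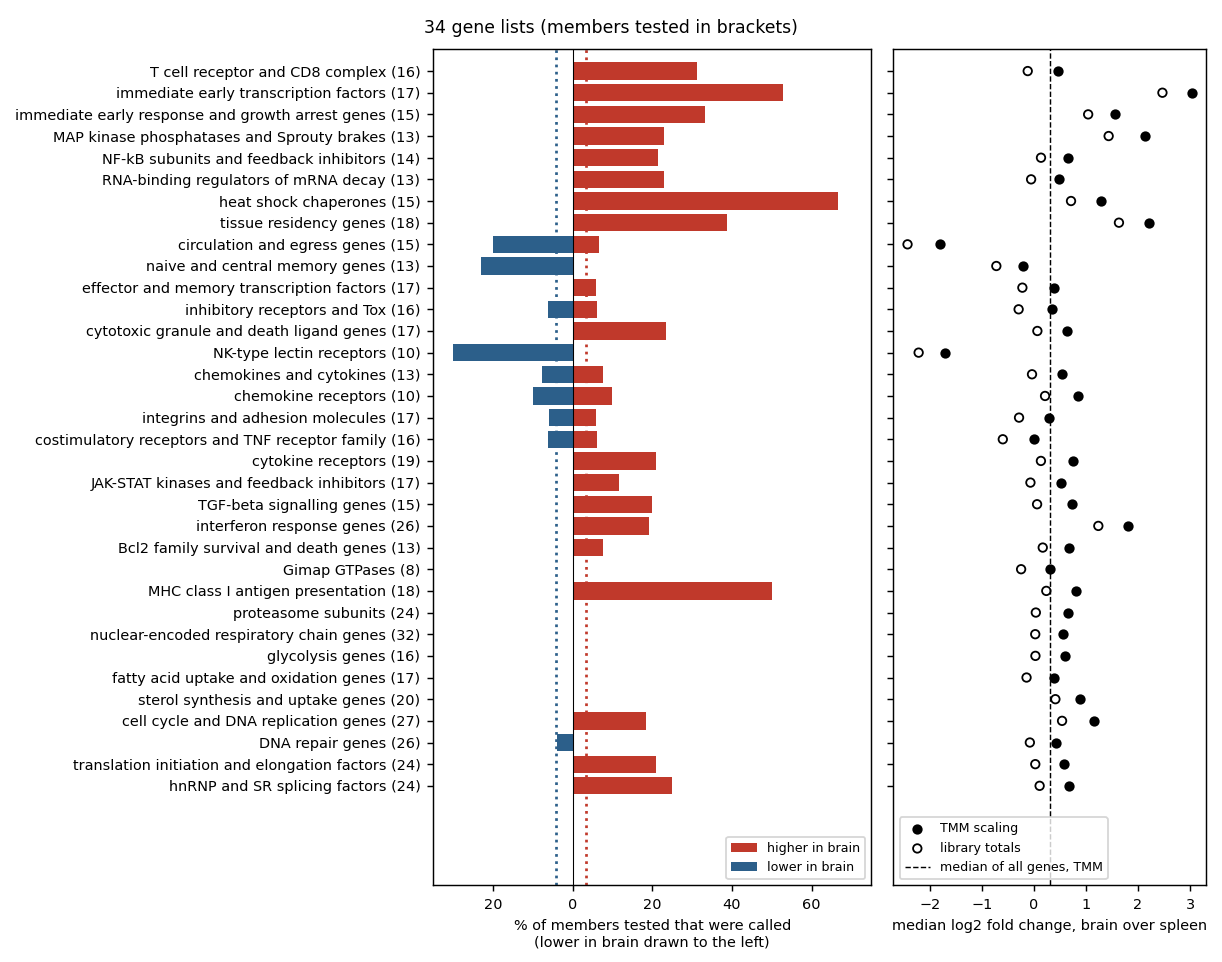
Left, share of the members tested in each of 34 gene lists that were called higher in brain (to the right) or lower in brain (to the left), with dotted lines at the background of 3.35% and 4.02%. Right, the median log2 fold change of each list with TMM scaling (filled) and with library totals (open), with a dashed line at the median of all genes, 0.31. The heat shock and immediate early transcription factor lists reach the highest shares to the right, and the NK-type lectin list, with 3 of 10 members lower, reaches the highest to the left.

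Immediate early transcription factors stood far higher in the resting brain cells. Of 17 members tested, 9 rose and none fell, against a background of 3.35%, and the median log2 fold change was 3.04. With library totals the same number rose, with a median of 2.47, and without brain replicates 8 and 9 there were 10. The 3 NR4A genes encode orphan nuclear receptors that are induced within minutes of T cell receptor signals and restrain effector programmes when they persist. Nr4a3 (ENSMUSG00000028341, chromosome 4, 48045153 to 48086447, plus strand, GRCm38 positions from GENCODE M21 here and below) was at 791, 922, 641, 931, 651 and 621 CPM in brain replicates 7 to 12, and at 9.94, 11.3, 7.07, 3.75 and 12.9 CPM in spleen replicates 30 to 34. The brain libraries of Nr4a3 were close to each other and lay far above every spleen library (log2 fold change 6.402 ± 0.37 SE, adjusted p = 1.3e-07). Nr4a2 (ENSMUSG00000026826, chromosome 2, 57106830 to 57124003, minus strand) had 733, 324, 1197, 656, 402 and 708 CPM in brain and 9.15, 12.4, 10.5, 13.8 and 14.6 CPM in spleen, with brain replicate 9 the highest (log2 fold change 5.79 ± 0.38, adjusted p = 3.7e-07). Nr4a1 (ENSMUSG00000023034, chromosome 15, 101254269 to 101274795, plus strand) had 541, 2471, 846, 610.3, 1162 and 449 CPM in brain and 6.13, 6.84, 3.49, 4.33 and 6.67 CPM in spleen (log2 fold change 7.53 ± 0.54, adjusted p = 7.6e-07). Brain replicate 8 stood above the other 5 brain libraries of Nr4a1, which also exceeded all of spleen. Per transcript length the 3 genes were at 273 (Nr4a1), 196 (Nr4a2) and 261 TPM (Nr4a3) on average in brain, against 2.402, 11.1 and 3.41 TPM in spleen.

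The 250 bases before the RefSeq starts of the 3 NR4A genes are printed because the genes moved together and share a short sequence. Capitals mark TGACG, the core of the cyclic AMP response element, or its reverse complement CGTCA; lines are written 5′ to 3′ on the strand of the gene, in build GRCm38.p6. The window of Nr4a1 lies inside the GENCODE gene, which has a start further upstream, and that of Nr4a3 crosses the GENCODE start.
Nr4a1, chr15:101266596-101266845, plus strand: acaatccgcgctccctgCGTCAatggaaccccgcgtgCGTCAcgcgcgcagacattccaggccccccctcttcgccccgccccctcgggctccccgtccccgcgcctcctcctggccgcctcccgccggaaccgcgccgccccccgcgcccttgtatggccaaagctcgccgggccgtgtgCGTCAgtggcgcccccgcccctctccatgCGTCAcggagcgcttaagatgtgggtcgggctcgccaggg
Nr4a2, chr2:57124004-57124253, minus strand: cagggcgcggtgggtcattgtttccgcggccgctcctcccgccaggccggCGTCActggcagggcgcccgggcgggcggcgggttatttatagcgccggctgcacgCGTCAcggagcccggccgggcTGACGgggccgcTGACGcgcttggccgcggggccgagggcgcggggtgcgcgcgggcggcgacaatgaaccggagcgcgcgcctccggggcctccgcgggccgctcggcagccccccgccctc
Nr4a3, chr4:48045055-48045304, plus strand: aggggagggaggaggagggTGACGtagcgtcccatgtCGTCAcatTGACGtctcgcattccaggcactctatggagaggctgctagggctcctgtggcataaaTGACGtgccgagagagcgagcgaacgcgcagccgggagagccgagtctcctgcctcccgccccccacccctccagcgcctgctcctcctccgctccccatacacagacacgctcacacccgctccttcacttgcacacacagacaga
Each window holds 4 cores on either strand. At least 3 cores stood in 210 of 27018 genes with a start in the table (0.777%) and in 3 of 14 immediate early factors with a start there (21.4%), these NR4A genes. At least 1 core stood in 9 of the 14 (64.3%) and in 19.8% of all genes. The core was looked for after the sequences had been seen, and the full element TGACGTCA, which contains it, was in none of the 14 and in 1.77% of all genes. Neither was the AP-1 site TGANTCA in any of the 14 (7.82% of all genes), and the CArG box of serum response factor was in 1, Egr2 (1.62% of all genes). These matches on both strands describe letters only, not sites in use.

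AP-1 and EGR members followed with wider spread. Fosl2, an AP-1 subunit (ENSMUSG00000029135, chromosome 5, 32135801 to 32157842, plus strand), had 517, 614, 799.5, 335, 417 and 388 CPM in brain and 9.77, 6.48, 4.17, 8.66 and 6.91 CPM in spleen (log2 fold change 6.15 ± 0.37, adjusted p = 1.5e-07). Egr1, a zinc finger factor downstream of MAP kinases, ranged over 196 to 1196 CPM (median 452 CPM) in brain, highest in replicate 8, and was at 17.9, 10.99, 16.004, 14.8 and 16.2 CPM in spleen (5.13 ± 0.48, adjusted p = 1.6e-05). Members named here and below beyond the 3 largest changes of a list were chosen after their values were seen. Fos (3.72 ± 0.37), Fosb (3.803 ± 0.54) and Junb (3.04 ± 0.34) also rose on the log2 scale, each with all brain libraries above all spleen libraries. Atf3, a factor of the stress response, was uneven, with 19.1, 0.273, 94.1, 18.6, 0.777 and 12.8 CPM in brain, highest in replicate 9, and 0 counts in 3 of 5 spleen libraries (9.19 ± 1.88, adjusted p = 0.005; 8.30 without brain replicates 8 and 9). With 2 counts of Atf3 in all of spleen, the ratio of pooled counts (769-fold, 212 to 6350.1, 95% exact interval) covers counting error only, as do the ratios given so below. The others did not pass. Jun was at 126 to 413 CPM (median 259 CPM) in brain and 116 to 139 CPM in spleen (1.003 ± 0.35, adjusted p = 0.12). Myc, a growth factor-responsive gene, was at 0.915 to 64.5 CPM (median 28.6 CPM) in brain and 20.9 to 42.1 CPM in spleen (-0.22 ± 0.798, adjusted p = 0.94). Irf4, which scales with receptor signal strength, was at 12.5 to 114 CPM (median 39.2 CPM) in brain and 9.02 to 15.7 CPM in spleen (2.16 ± 0.75, adjusted p = 0.12).

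**Figure D3:**
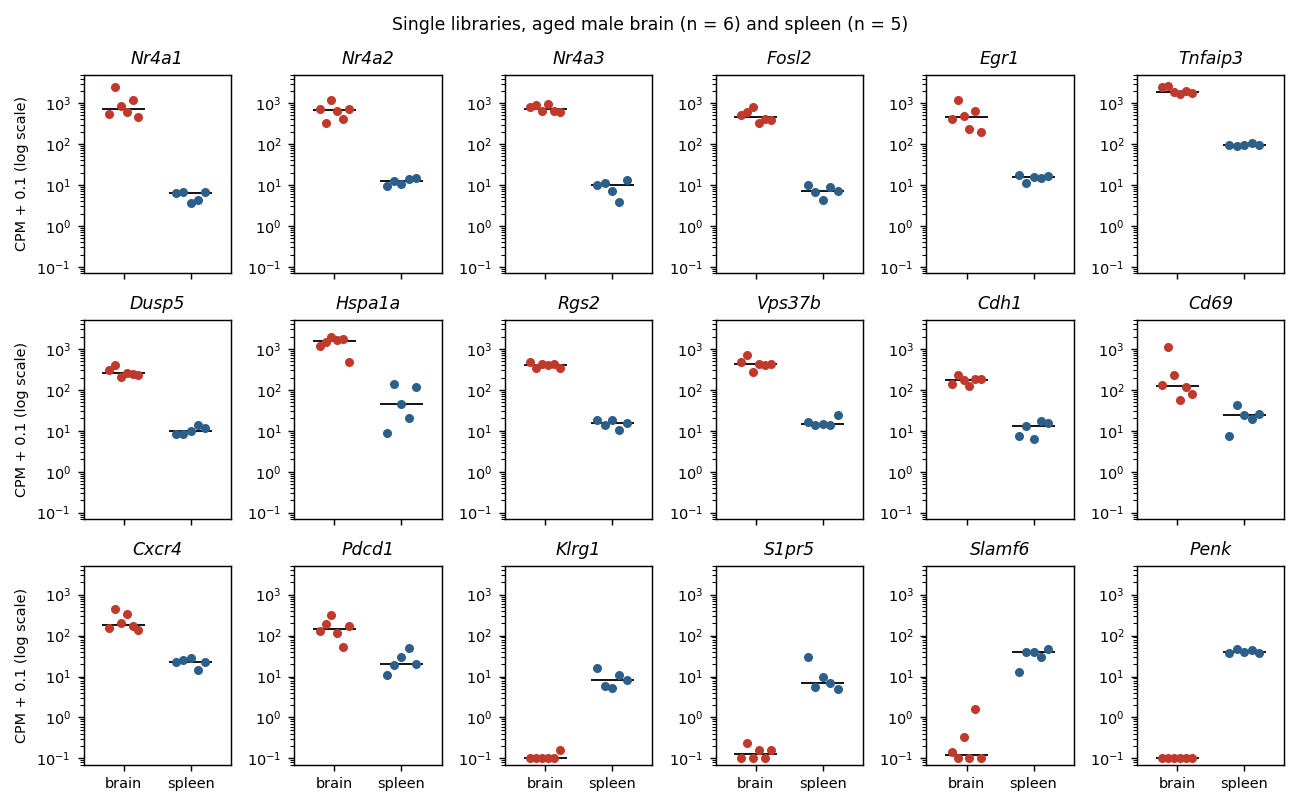
CPM plus 0.1, on a log axis, of 18 genes in the 6 brain (left) and 5 spleen (right) libraries of each panel; each point is a library and the line is the group's median. The 3 NR4A genes lie between 324 and 2471 CPM in brain and at most 14.6 CPM in spleen, and Penk has 0 counts in every brain library.

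Growth arrest genes and the brakes on MAP kinases rose in part. Of 15 immediate early response and growth arrest genes tested, 5 rose and none fell (median 1.56), 4 with library totals. Klf6, a zinc finger factor, had 246 to 612 CPM (median 404 CPM) in brain and 65.3, 66.8, 70.6, 65.9 and 59.6 CPM in spleen (2.64 ± 0.28, adjusted p = 3.8e-05). Ppp1r15a, which restarts translation after stress, had 191 to 518 CPM (median 375 CPM) in brain and 65.5, 65.3, 62.8, 57.4 and 76.1 CPM in spleen (2.48 ± 0.32, adjusted p = 0.00029). In both genes the lowest brain library was well above the highest spleen library. Btg2, an antiproliferative gene (1.66 ± 0.37), Csrnp1 (3.97 ± 0.71) and Ier5l (6.99 ± 1.14; 7.69 without spleen replicate 30) completed the 5. Of 13 dual-specificity phosphatases and Sprouty relatives, which switch off ERK, JNK and p38, 3 rose and none fell (median 2.12). Dusp5, a nuclear ERK phosphatase (ENSMUSG00000034765, chromosome 19, 53529109 to 53542431, plus strand), was at 306, 399.7, 210.5, 254, 249.9 and 224 CPM in brain and 8.43, 8.28, 9.53, 14.04 and 11.3 CPM in spleen (4.73 ± 0.35, adjusted p = 1.3e-06). Dusp1 had 175 to 298 CPM (median 232 CPM) in brain and 22.996, 28.1, 30.7, 26.4 and 28.2 CPM in spleen (3.11 ± 0.31, adjusted p = 2.2e-05). Dusp2 had 47.1 to 217 CPM (median 147 CPM) in brain, with replicate 10 the lowest, and 24.3, 17.7, 22.1, 25.3 and 20.2 CPM in spleen (2.62 ± 0.46, adjusted p = 0.0034). No brain library of these 3 phosphatases overlapped spleen. Dusp10 spread over 1.67 to 378 CPM (median 54.6 CPM) in brain and missed the threshold, with 18.8 to 34.05 CPM in spleen (2.12 ± 0.93, adjusted p = 0.25).

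In the NF-kB list Tnfaip3, Nfkbiz and Nfkbid rose, and the subunits and the other members did not pass. The genes that rose were 3 of 14 tested, 2 with library totals, and none fell (median 0.65). Tnfaip3, whose product A20 removes activating ubiquitin chains, had 2454, 2632, 1838, 1706, 1937 and 1775 CPM in brain and 95.6, 87.5, 93.04, 104 and 96.9 CPM in spleen (4.43 ± 0.18, adjusted p = 1.9e-09), the smallest adjusted p among the genes named here. Nfkbiz, an atypical IkB protein, had 38.7 to 369 CPM (median 125 CPM) in brain and 19.8, 18.6, 23.5, 23.1 and 27.3 CPM in spleen (2.84 ± 0.58, adjusted p = 0.005). Nfkbid, another atypical IkB protein, had 22.9, 142, 143, 22.3, 7.35 and 22.6 CPM in brain, high in replicates 8 and 9, and 4.97, 6.75, 7.75, 6.12 and 7.41 CPM in spleen (3.18 ± 0.87, adjusted p = 0.034). Its call was lost without both of these replicates (1.52, adjusted p = 0.19), with library totals (adjusted p = 0.12), and without either replicate or any single spleen library (adjusted p up to 0.1). For the subunit genes Nfkb1 (-0.12 ± 0.303), Rela (0.39 ± 0.49) and Rel (0.62 ± 1.19) the adjusted p was 0.91, 0.79 and 0.88. Among 13 regulators of mRNA decay, the 3 members of the ZFP36 family, which bind AU-rich elements of cytokine transcripts, rose and none fell (median 0.49; 1 rose with library totals). Zfp36l2 had 297 to 623 CPM (median 409 CPM) in brain and 87.2, 103, 94.1, 93.6 and 88.6 CPM in spleen (2.195 ± 0.26, adjusted p = 0.0001). Zfp36l1 (2.07 ± 0.47, adjusted p = 0.011) was at 32.5 to 241 CPM in brain and 27.98 to 44.2 CPM in spleen, with overlap through brain replicate 12. Zfp36 (2.02 ± 0.53, adjusted p = 0.028) overlapped through the same library and lost its call without brain replicate 9 or 11 or any spleen library (adjusted p up to 0.091). The decay factors Rc3h1 (0.55 ± 0.33, adjusted p = 0.47) and Cnot1 (0.04 ± 0.23, adjusted p = 0.96) did not pass.

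Heat shock chaperones rose in part. Of 15 genes tested 10 rose and none fell (median 1.28), with 12 without brain replicates 8 and 9 and 6 with library totals. Their summed level was 23439 to 30951 CPM in brain and 7664 to 10119 CPM in spleen. Hspa8, the constitutive HSP70 chaperone, made up most of it, with 14548, 14532, 17903, 17133, 16907 and 15677 CPM in brain and 4532, 5916, 5772, 4684 and 5771 CPM in spleen (1.59 ± 0.099, adjusted p = 1.7e-07). Hspa1a, an inducible HSP70 gene (ENSMUSG00000091971, chromosome 17, 34969190 to 34972156, minus strand), had 1174, 1444, 1949.9, 1686, 1736 and 466 CPM in brain, lowest in replicate 12, and 8.97, 139.8, 44.5, 20.2 and 119.9 CPM in spleen (4.402 ± 0.66, adjusted p = 0.00099). Hspa1b, its near-identical copy, had 312 to 2654 CPM (median 1528 CPM) in brain and 36.7, 148, 54.5, 53.6 and 138 CPM in spleen (4.25 ± 0.55); the split of reads between the copies is uncertain. Spleen itself was uneven for this pair, with replicates 31 and 34 high. Hsp90aa1, the inducible HSP90 gene, had 1865 to 6446 CPM (median 2761 CPM) in brain and 683, 894, 889, 798 and 965 CPM in spleen (1.93 ± 0.27). Smaller rises belonged to the co-chaperone genes Dnajb1 (1.92 ± 0.31) and Dnaja1 (0.94 ± 0.22), the endoplasmic reticulum chaperone gene Hspa5 (1.28 ± 0.19), the mitochondrial Hspa9 (1.32 ± 0.27), Hsph1 (1.14 ± 0.27) and Hsp90ab1 (0.74 ± 0.14). Hspd1 (0.15 ± 0.37, adjusted p = 0.91), Hspe1 (0.81 ± 0.302, adjusted p = 0.16) and the regulator gene Hsf1 (0.505 ± 0.88, adjusted p = 0.86) did not pass. The 250 bases before the start of Hspa1a are shown because most of the list rose with TMM scaling and its regulator HSF1 has a known element. Capitals mark a match of GAANNTTC, the core of the heat shock element, which reads the same on both strands.
Hspa1a, chr17:34972157-34972406, minus strand: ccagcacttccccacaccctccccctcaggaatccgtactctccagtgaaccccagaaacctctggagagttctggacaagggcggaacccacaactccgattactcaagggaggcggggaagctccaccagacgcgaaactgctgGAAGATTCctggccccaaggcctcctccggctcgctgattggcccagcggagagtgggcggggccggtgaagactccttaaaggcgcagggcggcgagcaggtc
The match lies 104 to 97 bases before the start. Windows of 6 of 11 chaperone genes with a start in the table (54.5%) held this core, against 7.73% of all 27018 genes, and 3 of those 6 rose in brain (Hspa1a, Hspa1b and Dnaja1), as did 3 of the 5 without it. The windows of Hspa1a and Hspa1b differ at 3 of 250 letters.

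Residency genes rose in part, and the integrin and transcription factor members that often define resident cells did not pass. Of 18 members tested 7 rose and none fell (median 2.22), 10 without brain replicates 8 and 9 and 7 with library totals. Rgs2, a regulator that shortens G protein signals (ENSMUSG00000026360, chromosome 1, 143999338 to 144004161, minus strand), had 485, 346, 434, 406, 424 and 342 CPM in brain and 17.8, 13.4, 17.9, 10.1 and 15.2 CPM in spleen (4.77 ± 0.29, adjusted p = 1.5e-07). Vps37b, an ESCRT subunit (ENSMUSG00000066278, chromosome 5, 124004641 to 124032270, minus strand), had 266 to 726 CPM (median 422 CPM) in brain and 16.3, 14.05, 14.3, 13.8 and 23.9 CPM in spleen (4.78 ± 0.34, adjusted p = 7e-07). Cdh1, which encodes E-cadherin, had 124 to 232 CPM (median 176 CPM) in brain and 7.46, 12.9, 6.04, 16.997 and 15.7 CPM in spleen (3.86 ± 0.44, adjusted p = 9.5e-05). All brain libraries exceeded all spleen libraries for these 3 genes. Bhlhe40, a transcription factor of mitochondrial fitness in resident cells, had 353 to 619 CPM (median 489 CPM) in brain and 50.2, 34.1, 49.7, 70.6 and 30.8 CPM in spleen (3.35 ± 0.302, adjusted p = 1.1e-05). Inpp4b, a phosphoinositide phosphatase, had 335 to 716 CPM (median 452 CPM) in brain and 126, 147, 148, 125 and 149 CPM in spleen (1.79 ± 0.24, adjusted p = 0.00048). Rgs1, a relative of Rgs2, was less even, at 506, 657, 115, 77.8, 306 and 242 CPM in brain and 45.3, 48.2, 58.1, 79.02 and 70.8 CPM in spleen, with overlap through brain replicate 10 (2.397 ± 0.500, adjusted p = 0.0055). Cd69, whose product holds cells in tissue by binding the exit receptor S1PR1, had 133, 1128, 229.8, 57.3, 119 and 81.1 CPM in brain and 7.19, 41.7, 24.3, 19.4 and 25.3 CPM in spleen. The difference of mean log2(CPM + 1) for Cd69 was 2.93, with p = 0.0043 by a two-sided exact permutation test over all splits (0.017 adjusted over the 4 genes tested so), the smallest value these splits can give.

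Several hallmark genes of residency did not pass. Itgae, the CD103 integrin gene, was at 53.6, 19.6, 305, 9.43, 21.9 and 21.1 CPM in brain, high only in replicate 9, and at 22.3, 36.7, 28.2, 12.5 and 30.2 CPM in spleen (1.46 ± 0.86, adjusted p = 0.46). Itga1, the CD49a gene, was at 208, 88.4, 38.1, 179.7, 194 and 23.1 CPM in brain and 138, 16.9, 23.7, 19.6 and 18.2 CPM in spleen, where replicate 30 was high (1.497 ± 0.73, adjusted p = 0.33). Cxcr6, a chemokine receptor of resident cells, was at 56.5 to 586 CPM (median 225 CPM) in brain and 69.3 to 139 CPM in spleen (1.48 ± 0.52, adjusted p = 0.12). For the transcription factor genes Zfp683 (0 to 23.1 CPM in brain, 1.003 to 16.2 CPM in spleen), Prdm1 (0.994 to 107 CPM and 20.9 to 37.4 CPM) and Runx3 (51.3 to 138 CPM and 86.4 to 117 CPM) the groups overlapped and the adjusted p was 0.96, 0.96 and 0.81. Zfp683 encodes Hobit and Prdm1 encodes Blimp1, factors known to act together in mouse resident lymphocytes. Litaf (2.85 ± 0.87, adjusted p = 0.064), Xcl1, a chemokine for cross-presenting dendritic cells (2.06 ± 0.64, adjusted p = 0.073), and Ahr (3.69 ± 1.14, adjusted p = 0.069) missed the threshold.

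**Figure D4:**
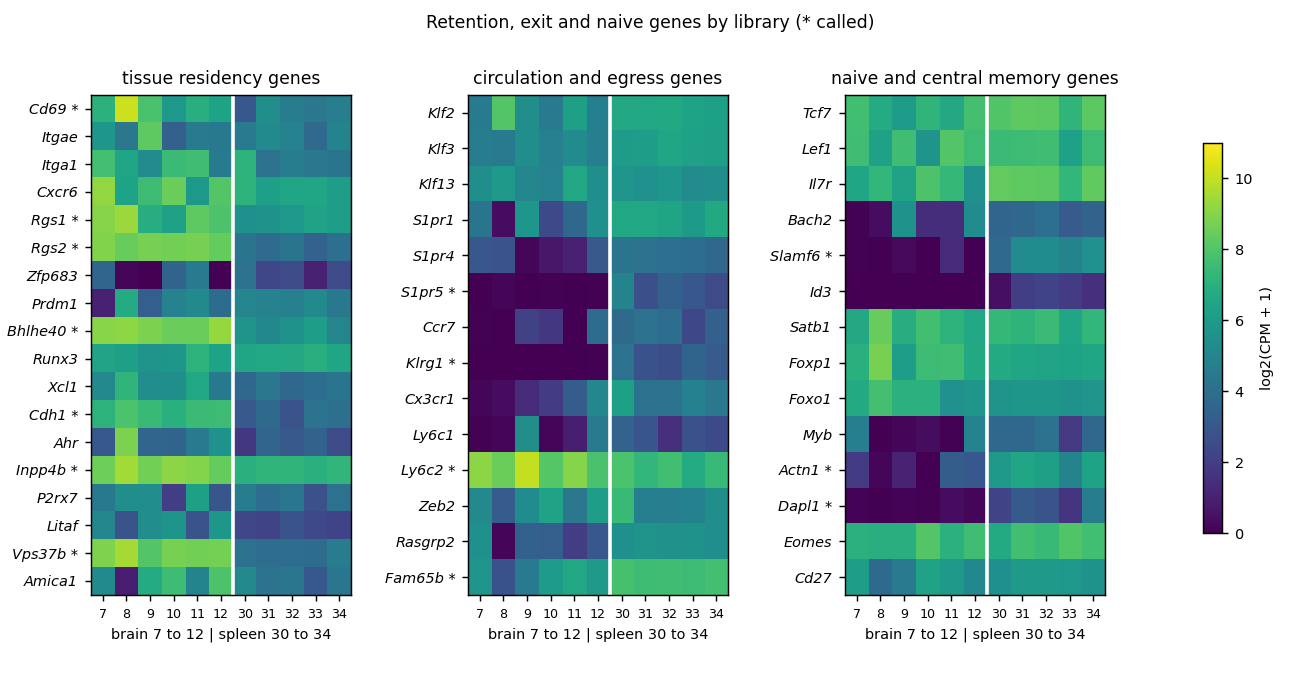
Log2(CPM + 1), as colour, of genes of the residency, circulation and naive or central memory lists (rows) in brain replicates 7 to 12 (left of the white line) and spleen replicates 30 to 34; a star marks a gene that passed an adjusted p of 0.05. Rgs2, Vps37b, Cdh1 and Bhlhe40 are high in every brain library, whereas Klrg1, S1pr5, Slamf6 and Dapl1 are at most 1.49 CPM in all 6.

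A few exit and circulation genes fell in brain. Of 15 members tested 3 fell and 1 rose (median -1.80), against a background of 4.02% lower, and there were 6 lower without brain replicates 8 and 9 and 4 lower and none higher with library totals. Their summed level, 517 to 1311 CPM in brain and 748 to 1229 CPM in spleen, overlapped between tissues. S1pr5, a sphingosine-1-phosphate receptor of effector cells, had 0, 0.136, 0, 0.0593, 0 and 0.057 CPM in brain and 29.2, 5.49, 9.53, 6.81 and 4.77 CPM in spleen, highest in replicate 30 (-7.93 ± 1.51, adjusted p = 0.0049; -7.19 without that replicate; 3 brain counts, 330.1-fold, 112 to 1604 lower). Klrg1, a receptor of terminal effector cells, had 0 counts in 5 brain libraries and 0.057 CPM in replicate 12, and 15.98, 5.85, 5.28, 10.6 and 7.98 CPM in spleen (-8.91 ± 1.48, adjusted p = 0.0024; -10.02 without brain replicate 12; 1 brain count, 868-fold, 155 to 34341 lower). Fam65b, which restrains RhoA and T cell migration, had 53.02, 5.87, 22.2, 64.8, 96.3 and 60.4 CPM in brain and 219, 192, 194, 183 and 206 CPM in spleen (-1.98 ± 0.52, adjusted p = 0.029, up to 0.068 without any 1 spleen library). Every brain library of these 3 genes lay below every spleen library. Ly6c2, a surface protein of memory cells, went the other way, with 229 to 1021 CPM (median 439.8 CPM) in brain and 232, 153, 205, 109 and 174 CPM in spleen (1.49 ± 0.37, adjusted p = 0.018). The call was lost without spleen replicate 31, 33 or 34 (adjusted p up to 0.064) and with library totals. S1pr1, the main exit receptor, was at 18.2, 0.273, 54.6, 4.33, 11.7 and 44.4 CPM in brain and 94.3, 92.1, 83.8, 62.9 and 102 CPM in spleen. It missed the threshold although no libraries overlapped (-1.97 ± 0.85, adjusted p = 0.25). Klf2, the factor that drives S1pr1, was at 21.99, 266, 42.4, 21.7, 75.8 and 26.1 CPM in brain, with replicate 8 above all of spleen, which was at 98.7, 94.7, 101, 82.3 and 75.6 CPM (-0.26 ± 0.64, adjusted p = 0.91).

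Naive and central memory genes included 3 that fell of 13 tested and none that rose (median -0.21), with 5 lower under library totals. Slamf6, a receptor of stem-like memory cells (ENSMUSG00000015314, chromosome 1, 171917515 to 171953170, plus strand), had 0.0452, 0, 0.229, 0, 1.49 and 0 CPM in brain and 12.6, 38.7, 40.01, 30.6 and 46.7 CPM in spleen (-6.77 ± 1.49, adjusted p = 0.0081; -9.06 without brain replicate 11). Actn1, an actin crosslinker, had 2.94, 0.136, 1.07, 0, 8.55 and 7.18 CPM in brain and 58.5, 87.97, 75.8, 29.4 and 82.6 CPM in spleen (-4.33 ± 1.16, adjusted p = 0.031, up to 0.077 without brain replicate 7 or 9 or spleen replicate 30, 31, 32 or 34). Dapl1 had at most 0.299 CPM in brain and 3.73, 7.74, 6.21, 2.27 and 23.3 CPM in spleen (-6.19 ± 1.32, adjusted p = 0.0066; -5.42 without spleen replicate 34). None of the 3 overlapped between tissues. Tcf7, the factor of self-renewing memory cells, was at 67.02 to 216 CPM (median 125 CPM) in brain and 255, 313, 299, 144 and 295 CPM in spleen (-0.91 ± 0.34, adjusted p = 0.16). Il7r, the survival receptor for IL-7, was at 46.9 to 246 CPM (median 122 CPM) in brain and 330.4, 306, 296, 157 and 315 CPM in spleen (-1.12 ± 0.39, adjusted p = 0.12). Lef1 (-0.03 ± 0.41), Eomes (-0.22 ± 0.32) and Cd27 (-0.21 ± 0.55) had adjusted p values of 0.99, 0.83 and 0.92. Within spleen, replicate 33 had the lowest level of Actn1, Dapl1, Tcf7, Il7r and Lef1.

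Some genes of the T cell receptor and CD8 complex were called higher in brain. Of 16 genes tested 5 rose and none fell (median 0.46), and 3 rose with library totals (median -0.12). The median of all genes that averaged at least 100 CPM over both tissues was 0.63, above that of this list. No share called was taken for genes of like level. Cd8a had 544 to 1274 CPM (median 931 CPM) in brain and 362, 308, 289.7, 326 and 318 CPM in spleen (1.51 ± 0.21). Cd3g had 724 to 1262 CPM (median 993 CPM) in brain and 364, 383, 390.3, 532 and 345 CPM in spleen (1.32 ± 0.198). The adaptor gene Lcp2 (1.25 ± 0.25) and Cd2 (0.95 ± 0.19) rose too. Partners of the same complexes did not pass. Cd8b1, which pairs with CD8 alpha, was at 379 to 1107 CPM (median 687 CPM) in brain and 631, 563, 516, 673 and 631 CPM in spleen (0.23 ± 0.23, adjusted p = 0.73). Cd3e (0.52 ± 0.25, adjusted p = 0.31) and Cd3d (0.54 ± 0.49, adjusted p = 0.69) likewise missed it. Cd5, a brake whose level follows receptor signal strength, was at 13.7 to 91.05 CPM (median 40.2 CPM) in brain and 62.6 to 117 CPM in spleen (-1.03 ± 0.53, adjusted p = 0.37).

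Inhibitory receptors were mixed, and Cd200r1, the receptor gene in the title of the series, had a difference within its spread. Of 16 genes tested 1 rose and 1 fell (median 0.34). Pdcd1, the PD-1 gene, had 129, 195, 326, 117, 53.7 and 168 CPM in brain and 10.6, 18.7, 30.1, 50.1 and 19.7 CPM in spleen (2.67 ± 0.54, adjusted p = 0.0049). The lowest brain library, replicate 11, lay just above the highest spleen library, replicate 33. Cd200r1, whose product receives the CD200 signal (ENSMUSG00000022667, chromosome 16, 44765736 to 44794978, plus strand), was at 97.1, 0, 1.601, 0.237, 0.179 and 46.8 CPM in brain and 8.79, 3.602, 5.02, 5.17 and 7.901 CPM in spleen. Brain replicates 7 and 12 exceeded all of spleen and the other 4 lay below all of it, so the signs depended on the measure. The fitted change (1.996 ± 1.56, adjusted p = 0.62) and the difference of mean log2(CPM + 1) (-0.42, two-sided exact permutation p = 0.75) had opposite signs. Its ligand gene Cd200, named after its value was seen, had 0 counts in all 6 brain libraries and 1.51, 0.72, 2.64, 1.16 and 1.81 CPM in spleen, at least 7.23-fold lower against a floor of 3 counts per library (adjusted p = 0.0049). That floor averaged 0.217 CPM over the brain libraries. Tox, a factor of exhausted cells, was at 126 to 396 CPM (median 290.2 CPM) in brain and 69.97, 139, 154, 230.4 and 146 CPM in spleen (0.95 ± 0.35, adjusted p = 0.15). Tigit (1.21 ± 0.497, adjusted p = 0.21), Lag3 (-1.08 ± 1.11, adjusted p = 0.74), Havcr2 (1.35 ± 1.57, adjusted p = 0.77) and Ctla4 (2.54 ± 0.87, adjusted p = 0.11) did not pass.

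Death ligands and a granzyme inhibitor rose while the granzyme and perforin genes did not pass. Of 17 cytotoxic genes tested 4 rose and none fell (median 0.64; 1 with library totals). Serpinb9, which shields the killer cell from its own granzyme B, had 163 to 602 CPM (median 403 CPM) in brain and 85.1, 69.7, 55.8, 134 and 57.9 CPM in spleen (2.28 ± 0.38, adjusted p = 0.0023). Fasl, the Fas ligand gene, had 46.05 to 137 CPM (median 95.5 CPM) in brain and 26.2, 19.5, 20.5, 41.02 and 18.2 CPM in spleen (1.91 ± 0.48, adjusted p = 0.022, up to 0.084 without spleen replicate 30, 31, 32 or 34). Tnfsf10, the TRAIL gene, had 49.7 to 278 CPM in brain and 33.4 to 68.1 CPM in spleen (1.66 ± 0.47, adjusted p = 0.043, up to 0.13 without brain replicate 7, 9 or 11 or any 1 spleen library). Serpinb6b (1.44 ± 0.402, adjusted p = 0.039) was the fourth. Gzmb was at 95.1, 934, 336, 124, 188 and 101 CPM in brain and 202, 38.4, 48.3, 99.8 and 40.9 CPM in spleen, high in brain replicate 8 and spleen replicate 30 (1.79 ± 0.66, adjusted p = 0.15). Gzma (-0.92 ± 1.31, adjusted p = 0.82), Gzmk (0.18 ± 0.41, adjusted p = 0.9) and Prf1, the perforin gene (-0.99 ± 0.64, adjusted p = 0.53), had overlapping groups. Among 17 effector and memory transcription factors only Nfil3 rose, with 17.5 to 140.0 CPM (median 65.5 CPM) in brain and 6.13, 7.11, 5.96, 3.33 and 2.06 CPM in spleen (3.801 ± 0.75, adjusted p = 0.0049), and none fell (list median 0.38). Tbx21, the T-bet gene, was at 66.2 to 219.98 CPM (median 105 CPM) in brain and 48.4 to 83.2 CPM in spleen (1.14 ± 0.404, adjusted p = 0.13).

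Ly49 receptor genes were near 0 in brain. Of 10 NK-type lectin receptor genes tested 3 fell and none rose (median -1.71). Klra7 had at most 0.179 CPM in any brain library and 15.1, 9.72, 13.8, 8.13 and 14.6 CPM in spleen (-6.68 ± 1.16, adjusted p = 0.0031). Klra3 had 0 counts in 5 brain libraries, 0.399 CPM in replicate 12, and 46.5, 34.6, 12.3, 0.528 and 22.6 CPM in spleen (-8.21 ± 1.74, adjusted p = 0.0062). Klra1 had at most 0.0762 CPM in brain and 2.13, 8.104, 14.05, 0.581 and 3.46 CPM in spleen (-7.58 ± 1.53, adjusted p = 0.0049; -6.93 without spleen replicate 32; 2 brain counts, 239-fold, 65.5 to 1978 lower). Near-identical Klra copies share reads, so single values are uncertain. Spleen replicate 33 was also low for Klra1 and Klra3. No NKG2 gene passed. Klrc1, the inhibitory NKG2A gene, was at 68.4 to 387 CPM (median 311 CPM) in brain and 121, 131, 67.4, 24.97 and 138 CPM in spleen (1.496 ± 0.49, adjusted p = 0.091). Its partner gene Klrd1 (0.04 ± 0.81, adjusted p = 0.99) and the NKG2D gene Klrk1 (-0.35 ± 0.597, adjusted p = 0.86) overlapped between tissues.

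Chemokines, cytokines and the receptors that guide cells gave 1 call in each direction in each of 3 lists. Of 13 chemokine and cytokine genes tested Ifng rose and Penk fell (median 0.53; 1 higher and 2 lower with library totals). Ifng, the interferon gamma gene, had 31.6, 21.3, 392.03, 211, 257 and 208 CPM in brain, low in replicates 7 and 8, and 13.3, 25.4, 16.3, 21.96 and 15.9 CPM in spleen (3.33 ± 0.68, adjusted p = 0.0051). The difference of mean log2(CPM + 1) was 2.67, with a two-sided exact permutation p of 0.022 (0.029 adjusted over 4 genes). Penk, the proenkephalin gene (ENSMUSG00000045573, chromosome 4, 4133531 to 4138819, minus strand), had 0 counts in all 6 brain libraries and 38.3, 45.7, 39.5, 45.1 and 36.95 CPM in spleen. Against the floor of 3 counts per library it was at least 189-fold lower in brain (adjusted p = 0.00045). Ccl5, an abundant chemokine of memory cells, was at 508 to 838 CPM (median 529.97 CPM) in brain and 733, 754, 756, 1132 and 691 CPM in spleen (-0.47 ± 0.19, adjusted p = 0.21). Tnf was at 5.59 to 88.3 CPM (median 43.1 CPM) in brain and 3.38 to 7.99 CPM in spleen (2.75 ± 0.803, adjusted p = 0.051). Of 10 chemokine receptor genes tested Cxcr4 rose and Gpr15 fell (median 0.84). Cxcr4, the CXCL12 receptor (ENSMUSG00000045382, chromosome 1, 128588199 to 128592293, minus strand), had 151, 438, 199, 341, 167 and 140.02 CPM in brain and 22.7, 25.3, 28.4, 14.2 and 22.9 CPM in spleen (3.397 ± 0.42, adjusted p = 0.00019). Gpr15, a homing receptor for the large intestine, had 0 counts in brain and 17.4, 12.3, 17.5, 3.11 and 23.5 CPM in spleen, at least 67.99-fold lower (adjusted p = 0.0045). Cxcr3 (0.61 ± 0.498, adjusted p = 0.64) and Gpr183 (1.27 ± 0.38, adjusted p = 0.055) did not pass. Among 17 adhesion genes Selplg, the P-selectin ligand gene, rose (0.79 ± 0.21, adjusted p = 0.03, up to 0.11 without any 1 spleen library, and lost with library totals, where 2 genes were lower) and Itgad fell. Itgad, the CD11d gene, had 0 counts in brain and 10.7, 11.9, 11.2, 44.3 and 11.3 CPM in spleen, high in replicate 33, at least 82.4-fold lower (adjusted p = 0.0037). The VLA-4 subunit gene Itga4, whose product helps T cells cross brain vessels, was at 611 to 1071 CPM (median 797 CPM) in brain and 857, 979, 837, 998 and 944 CPM in spleen (-0.18 ± 0.17, adjusted p = 0.69). Its partner gene Itgb1 was at 430.3 to 1036 CPM (median 809 CPM) in brain and 409 to 642 CPM in spleen (0.700 ± 0.23, adjusted p = 0.094).

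Cytokine receptor and signal genes rose in small numbers. Of 19 cytokine receptor genes tested 4 rose and none fell (median 0.76; 2 with library totals). Il4ra, the IL-4 receptor chain, had 75.4 to 477 CPM (median 276 CPM) in brain, lowest in replicate 12, and 48.4, 56.8, 48.1, 29.6 and 46.01 CPM in spleen (2.67 ± 0.43, adjusted p = 0.0018). Ifngr1, the ligand-binding chain for interferon gamma, had 653 to 929.6 CPM (median 826 CPM) in brain and 267, 191, 189, 167 and 189.9 CPM in spleen (1.995 ± 0.197, adjusted p = 2.2e-05). Il21r (1.85 ± 0.38, adjusted p = 0.005) and Il2rb, the shared IL-2 and IL-15 receptor chain (0.77 ± 0.200, adjusted p = 0.026), were the others. Tnfrsf1b, the TNF receptor 2 gene, rose alone among 16 costimulatory and TNF receptor genes, with 121 to 438 CPM (median 313 CPM) in brain and 57.4, 52.1, 49.8, 52.2 and 45.8 CPM in spleen (2.49 ± 0.35, adjusted p = 0.00068). In the same list Tnfrsf25 fell, with 0 counts in brain and 0.658 to 1.62 CPM in spleen. Of 17 JAK-STAT genes 2 rose and none fell, though 1 was lower with library totals. Socs3, a feedback inhibitor, had 37.1 to 90.01 CPM (median 57.5 CPM) in brain and 4.44, 8.37, 9.19, 3.33 and 7.82 CPM in spleen (3.24 ± 0.63, adjusted p = 0.0049). Of 15 TGF-beta genes 3 rose and none fell (median 0.73; 2 higher with library totals). Skil, a repressor of SMAD complexes, had 143 to 653 CPM (median 309.7 CPM) in brain and 47.1, 50.2, 56.1, 63.5 and 65.5 CPM in spleen (2.54 ± 0.37, adjusted p = 0.00088). Tgif1, another repressor, had 5.02 to 207 CPM (median 67.9 CPM) in brain, with replicate 12 below all of spleen, and 5.68, 8.37, 6.81, 5.701 and 10.5 CPM in spleen (3.57 ± 0.79, adjusted p = 0.0084; 2.64 without brain replicates 8 and 9). The receptor gene Tgfbr2 rose by 0.97 ± 0.23 (adjusted p = 0.016, up to 0.065 without spleen replicate 30, 31, 32 or 33), a call lost with library totals.

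The interferon response and class I lists both held members that rose. Of 26 interferon response genes tested 5 rose and none fell (median 1.81), with 9 higher without brain replicates 8 and 9 and 4 higher with library totals. Ifit3, an RNA-binding antiviral gene, had 169, 1071, 648, 277, 335 and 402 CPM in brain, highest in replicate 8, and 49.1, 43.3, 39.2, 33.2 and 40.5 CPM in spleen (3.56 ± 0.44, adjusted p = 0.00019; 2.84 without brain replicates 8 and 9). Ifit1 had 24.5 to 519 CPM (median 147 CPM) in brain and 16.4, 18.9, 28.2, 11.9 and 14.8 CPM in spleen (3.33 ± 0.66, adjusted p = 0.0049; 2.67 without brain replicate 8), with replicate 12 inside the spleen range. Rtp4 had 47.7 to 221 CPM (median 80.4 CPM) in brain and 17.3, 13.7, 16.9, 7.65 and 14.6 CPM in spleen (2.802 ± 0.55, adjusted p = 0.0049). Zbp1, a sensor of Z-form nucleic acids (2.17 ± 0.35, adjusted p = 0.0019), and Oas3 (2.27 ± 0.61, adjusted p = 0.032) were the others. Isg15 (2.91 ± 1.19, adjusted p = 0.21), Irf7 (1.82 ± 0.77, adjusted p = 0.23) and Mx1 (-0.17 ± 1.14, adjusted p = 0.97) did not pass. Of 18 class I genes tested 9 rose and none fell (median 0.81), but with library totals none of the 18 passed in edgeR's test, with 4 higher at an unadjusted p under 0.05. DESeq2, with its own size factors, called 7 higher. Beta-2 microglobulin, B2m, had 1826 to 2596 CPM (median 2321 CPM) in brain and 1096, 1169.7, 1114, 1284 and 1252 CPM in spleen (0.93 ± 0.13, adjusted p = 0.00074). The heavy chain genes H2-K1 (0.68 ± 0.11), H2-D1 (0.77 ± 0.12) and H2-Q7 (0.999 ± 0.21) share reads among close copies. Psmb8, an immunoproteasome subunit (1.34 ± 0.32, adjusted p = 0.014), had the largest change. Tap1, a peptide transporter subunit, followed (1.25 ± 0.299, adjusted p = 0.015, up to 0.054 without spleen replicate 30 or 34). H2-T23, which encodes Qa-1, lost its call without brain replicate 8 or 10 or any 1 spleen library (1.08 ± 0.304, adjusted p = 0.042, up to 0.11).

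Survival and household groups gave few calls or none. Of 13 Bcl2 family genes tested Bcl2 rose, with 123 to 330.1 CPM (median 174 CPM) in brain and 67.7, 61.4, 59.5, 42.5 and 64.2 CPM in spleen (1.72 ± 0.35, adjusted p = 0.0049; lost with library totals), and none fell. The pro-death gene Bcl2l11, which encodes Bim, was at 14.6 to 330.2 CPM (median 33.4 CPM) in brain and 8.45 to 21.3 CPM in spleen (2.500 ± 0.85, adjusted p = 0.11). None of 8 Gimap GTPase genes, 24 proteasome subunits, 32 nuclear-encoded respiratory chain genes, 16 glycolysis genes, 17 fatty acid genes or 20 sterol genes passed in edgeR's test in either direction. Their medians were 0.31, 0.65, 0.56, 0.59, 0.38 and 0.89, beside 0.31 for all genes. The median was 0.54 for genes that averaged at least 10 CPM over both tissues and 0.63 for those of at least 100 CPM. At an unadjusted p under 0.05 these lists had 2, 1, 5, 5, 1 and 2 members higher and none lower. DESeq2 called 1, 0, 1, 1, 1 and 3 of their members higher and none lower. With brain replicates 8 and 9 left out, edgeR called 0, 0, 3, 1, 0 and 2 members higher and 0, 0, 1, 0, 2 and 0 lower. Gapdh, a glycolytic enzyme, was at 2021 to 4044 CPM (median 3204 CPM) in brain and 1749.7, 2160.4, 1983, 2225 and 2030.4 CPM in spleen (0.57 ± 0.17, adjusted p = 0.052). Eno1, another, was at 552 to 2631 CPM (median 996 CPM) in brain and 582 to 689 CPM in spleen (0.94 ± 0.31, adjusted p = 0.097). Atp5b, an ATP synthase subunit, was at 237 to 696 CPM (median 541 CPM) in brain and 246 to 295 CPM in spleen (0.89 ± 0.27, adjusted p = 0.06). Its partner gene Atp5a1 was at 268 to 726 CPM (median 399 CPM) in brain and 272 to 296 CPM in spleen (0.74 ± 0.26, adjusted p = 0.13). The proteasome genes Psmb1 (0.65 ± 0.38, adjusted p = 0.46) and Psma4 (0.87 ± 0.36, adjusted p = 0.21) overlapped between tissues. So did the oxidation genes Hadha (0.62 ± 0.46, adjusted p = 0.59) and Acadl (0.47 ± 0.52, adjusted p = 0.76). The sterol gene Srebf2 (0.79 ± 0.400, adjusted p = 0.37) overlapped too. Gimap4, a GTPase of lymphocyte survival (0.37 ± 0.17, adjusted p = 0.27), and Gimap6 (0.36 ± 0.21, adjusted p = 0.46) turned negative with library totals (-0.18 and -0.22).

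Some cell cycle, translation and splicing genes rose, and most of the translation and splicing calls were lost with library totals. Of 27 cell cycle and replication genes tested 5 rose and none fell (median 1.16; 2 with library totals). Cdk6, a G1 kinase, had 22.2 to 161 CPM (median 109 CPM) in brain and 14.1, 20.9, 16.6, 24.6 and 16.05 CPM in spleen (2.51 ± 0.55, adjusted p = 0.0077). Stmn1, a microtubule regulator, had 47.99 to 225 CPM (median 129 CPM) in brain and 22.02, 28.1, 21.6, 22.2 and 21.2 CPM in spleen (2.495 ± 0.49, adjusted p = 0.0049). Top2a, a topoisomerase of dividing cells, had 171, 998, 197, 114, 86.95 and 215 CPM in brain and 60.1, 80.7, 46.4, 82.5 and 69.4 CPM in spleen (2.13 ± 0.57, adjusted p = 0.032, up to 0.09 without any 1 spleen library; 1.21 without brain replicate 8). Pcna, the replication clamp gene (1.49 ± 0.27), and Ccnd2 (1.21 ± 0.26) also rose. Mki67, the gene of the proliferation marker Ki-67, was at 2.32 to 255 CPM (median 86.8 CPM) in brain and 161, 200.3, 128, 269 and 163 CPM in spleen (-0.79 ± 0.695, adjusted p = 0.67). Among 26 DNA repair genes Fancl fell and none rose. Fancl, a ubiquitin ligase of crosslink repair, had 0 counts in 5 brain libraries, 0.136 CPM in replicate 8, and 5.77, 9.81, 8.09, 18.2 and 9.2998 CPM in spleen (-8.78 ± 1.58, adjusted p = 0.0039; -10.28 without brain replicate 8; 1 brain count, 1043-fold, 187 to 41267 lower). Of 24 translation factors 5 rose and none fell (median 0.59), and with library totals 1 rose (median 0.026). Under library totals 3 were higher and 3 lower at an unadjusted p under 0.05 in edgeR's test. The median of all genes that averaged at least 100 CPM over both tissues was 0.63, and no share called was taken for genes of like level. Eef1a1, which brings transfer RNA to the ribosome, had 12072 to 15394 CPM (median 13967 CPM) in brain and 6628, 7516, 7719, 6784 and 7715 CPM in spleen (0.91 ± 0.08, adjusted p = 1.2e-05). Eef2 (0.89 ± 0.12), Eef1b2 (0.95 ± 0.18), Eif4a2 (1.01 ± 0.26) and Eef1d (0.97 ± 0.26) were the others; without any 1 spleen library the adjusted p of Eif4a2 went up to 0.079 and that of Eef1d to 0.1. Of 24 splicing factors 6 rose and none fell (median 0.68), and with library totals 1 rose (median 0.11). Tra2b (1.72 ± 0.25, adjusted p = 0.00078) had 211 to 383 CPM (median 336 CPM) in brain and 83.5, 100.5, 95.9, 96.8 and 106 CPM in spleen. Srsf2 changed by 2.09 ± 0.49 (adjusted p = 0.012; 1.43 without brain replicate 8) and Hnrnph1 by 1.29 ± 0.22.

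Outside the lists, genes with the largest changes and no overlap were of several kinds. Sik1, a salt-inducible kinase, had 159.6, 159, 136, 87.99, 144 and 72.3 CPM in brain and 3.37, 2.79, 4.597, 2.903 and 5.84 CPM in spleen (5.02 ± 0.52, adjusted p = 3.4e-05). Ttr, the transthyretin gene of choroid plexus, had 461, 61.7, 2.06, 129, 66.2 and 733 CPM in brain, highest in replicates 7 and 12 and lowest in replicate 9. It had 0 counts in 4 of 5 spleen libraries and 0.0528 CPM, 1 count, in replicate 33 (13.35 ± 1.64, adjusted p = 0.00018; 12.59 without brain replicate 12 and 14.73 without spleen replicate 33; 18666-fold, 3349.9 to 737307 higher). Among lower genes, Apol7c, an apolipoprotein L relative, had at most 0.297 CPM in brain and 56.9, 90.05, 72.4, 14.9 and 53.7 CPM in spleen (-8.55 ± 1.02, adjusted p = 0.00013). Dnase1l3, an extracellular nuclease, had at most 0.136 CPM in brain and 22.6, 19.2, 17.3, 9.61 and 13.4 CPM in spleen (-7.93 ± 1.24, adjusted p = 0.0014). Igj, the immunoglobulin joining chain gene, had 0 counts in brain and 8.61, 8.104, 28.9, 32.5 and 24.9 CPM in spleen, at least 94.97-fold lower (adjusted p = 0.0029). Zdhhc13, Ipp and Zfp276 were near 0 in brain too, with 1, 2 and 2 counts in all 6 libraries. Their ratios of pooled counts were 934-fold, 167 to 36952 (Zdhhc13), 467-fold, 129 to 3865 (Ipp) and 471-fold, 129.97 to 3901 lower (Zfp276), and the fitted changes of Zdhhc13 and Zfp276 were -10.16 without brain replicate 7 and -8.97 without brain replicate 8, against -9.19 ± 1.45 and -8.17 ± 1.51 with all libraries. Chosen after their values were seen, abundant higher genes outside the lists included Dennd4a with 1269 ± 393 CPM in brain and 139 ± 38.4 CPM in spleen (SD, n = 6 and 5; 3.19 ± 0.26). The splicing kinase gene Clk1 had 941 ± 353 CPM in brain and 119 ± 18.2 CPM in spleen (2.99 ± 0.28). Of the 12 lower genes of at least 100 CPM, also named after their values were seen, Pde2a, a phosphodiesterase of cyclic nucleotides, had a log2 fold change of -3.26 ± 0.91 and Myh9, the nonmuscle myosin heavy chain gene, one of -0.47 ± 0.13. The others were Ighm, Fam65b, AY036118, 4 U2 small nuclear RNA copies, a ribosomal protein pseudogene and 2 predicted genes.

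Markers of other cells differed between libraries, and their part in these results was not tested. Choroid plexus markers summed to 3.74 to 1668 CPM in brain and 4.77 to 12.8 CPM in spleen, with 2 of 3 tested higher and 1 lower. Brain replicate 12 was highest, with Ttr, Enpp2 and Folr1 detected, and Kcnj13, the lower one, had 0 counts in all brain libraries. Of 12 microglia and macrophage markers tested none was higher and 1 was lower, and the sums were 207 to 1558 CPM in brain and 304 to 350.01 CPM in spleen. Brain replicate 9 held the highest sum and also 228 CPM of P2ry12, 509 CPM of Lyz2 and 5.57 CPM of Tmem119. Trem2 was at 0 in all 11 libraries and Aif1 at 0 in all brain libraries. Astrocyte markers summed to 26.7 to 958 CPM in brain, highest in replicate 9 through Apoe, and 19.3 to 51.9 CPM in spleen, with 2 of 6 tested and none called. Oligodendrocyte markers (57.3 to 318 CPM and 99.6 to 106 CPM, 3 tested), neuron markers (0.409 to 51.5 CPM and 1.51 to 9.92 CPM, 2 tested) and endothelial markers (0.136 to 28.7 CPM and 26.3 to 37.8 CPM, 1 tested) had no call; Mog, Rbfox3 and Cldn5 were at 0 throughout. B cell markers summed lower, to 0.741 to 52.7 CPM in brain and 236 to 897 CPM in spleen, with 1 of 4 tested called and Cd79a at 0 in all brain libraries. Red blood cell markers were at 0.178 to 0.955 CPM in brain and 1.17 to 176 CPM in spleen (1 of 1 tested lower), and class II and dendritic cell markers at 37.9 to 361 CPM and 183 to 327 CPM (1 of 7 lower). Other T and NK cell lists overlapped between tissues. CD4 and regulatory T cell markers summed to 16.9 to 196 CPM in brain and 55.004 to 95.2 CPM in spleen (1 of 6 lower). Gamma delta T cell markers summed to 49.9 to 499.7 CPM in brain and 98.5 to 245 CPM in spleen (1 of 2 lower), and NK cell markers to 117 to 268 CPM and 183 to 267 CPM (0 of 3). Neutrophil and monocyte markers were at 0.57 to 351 CPM in brain and 45.8 to 66.4 CPM in spleen (0 of 1), and plasma cell markers at 62.8 to 150.4 CPM and 55.02 to 90.8 CPM (1 of 3 lower, Igj). The effector memory list overlapped at 1341 to 2533 CPM in brain and 1488 to 1977 CPM in spleen (1 of 7 higher, Il2rb).

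**Figure D5:**
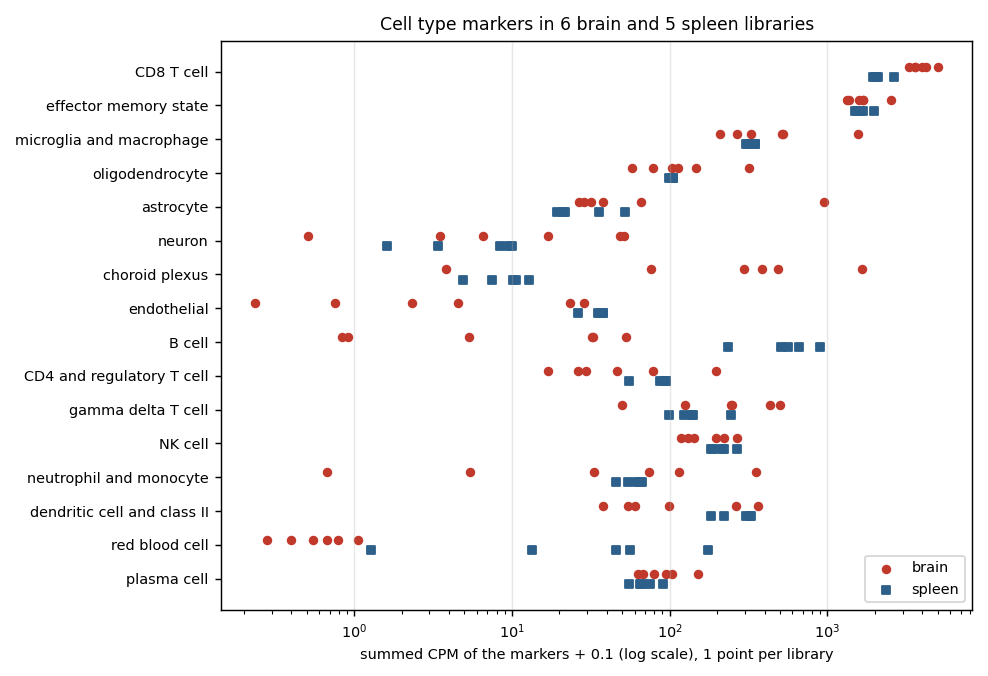
Summed CPM plus 0.1, on a log axis, of 16 marker lists (rows), one point per library, brain (upper points of a row) above spleen (lower points). CD8 T cell markers lie at 3315 to 5054 CPM in brain and 1957 to 2633 CPM in spleen, B cell markers lie lower in every brain library, and single brain libraries carry the highest choroid plexus and microglia sums.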

How the data were processed

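RNA of sorted CD8 T cells was sequenced in 35 libraries, and the 6 unstimulated aged male brain and 5 unstimulated aged male spleen libraries were compared. The submitters' processing notes name Bowtie2 2.2.0, RSEM 1.2.12 and build mm10; no source used here gives the annotation release or strand setting, so antisense and overlapping genes are uncertain. RSEM expected counts and TPM values were deposited by the authors for each library, per the file headers. Their series table holds counts of 38924 genes as whole numbers, the largest gap to the expected counts being 0.5. RSEM shares reads between similar genes. Gene positions are from GENCODE M21.

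The counts were tested with edgeR 4.0.16 in R 4.3.3, with filterByExpr at a minimum count of 10, TMM scaling, the robust quasi-likelihood test and Benjamini-Hochberg adjustment over all 11040 genes tested. The code was tested on simulated data. Standard errors beside log2 fold changes were not estimated directly. Each is the size of the change divided by the square root of the F statistic of the quasi-likelihood test. Intervals and floors cover counting error only. Gene lists and members were chosen with earlier results of these data known. The named genes are Cd200r1, up to 3 called members of each list per direction with at least 5 CPM (2 abundant members where none passed), and the 12 highest and 12 lowest changes with at least 10 CPM and no overlap, without predicted genes, small RNA and receptor segments; other genes were chosen after their values were seen. Some genes of the rule and the lists are not reported here, though the counts include them. The alternatives were DESeq2 1.42.0, limma 3.58.1 voom weights, other low-count filters, all 35 libraries, the rounded expected counts and each library left out, and, chosen after seeing the data, library totals and leaving out brain replicates 8 and 9. Tables and figures used Python 3.11.15.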

Additional observations from a re-analysis of the deposited data

Results flagged for a closer look

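Among the named genes reported here, 21 of 180 gene and group combinations (11.7%) were flagged for a single library far from its group. The gap had to exceed Dixon's critical value, which chance passes about 1 in 20 times for normal values. CPM values were not log transformed, so the share flagged cannot be set against that rate. Where all other libraries of the group had 0 counts the flag was fixed in advance, as for Klrg1, Klra3, Fancl, Zdhhc13 and Ttr. Brain replicate 8 held 6 of the 21 flags, all of them its group's highest value: Nr4a1 at 2471 CPM, Hsp90aa1 at 6446 CPM, Ifit1 at 518.5 CPM, Top2a at 998.3 CPM, Srsf2 at 621.5 CPM and Fancl at 0.1364 CPM. Brain replicate 9 was far above for Atf3 at 94.08 CPM. Brain replicate 12 was far above for Klrg1 at 0.05701 CPM, Klra3 at 0.3991 CPM and Rtp4 at 221.2 CPM, brain replicate 11 for Slamf6 at 1.494 CPM and brain replicate 7 for Zdhhc13 at 0.04516 CPM. In spleen, replicate 33 was far above for Cd3g at 531.9 CPM, Itgad at 44.29 CPM and Ttr at 0.05279 CPM, replicate 34 for Vps37b at 23.95 CPM and Dapl1 at 23.29 CPM, replicate 30 for S1pr5 at 29.21 CPM and Ifngr1 at 267 CPM and replicate 31 for Stmn1 at 28.09 CPM. Spleen replicate 32 was far below for Acadl at 54.99 CPM. The values of Klrg1, Fancl, Zdhhc13 and Ttr rest on 1 count each.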

How the results depend on the processing

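The count of genes higher in brain was 370 of 11040 tested and that of genes lower in brain was 444. Genes higher numbered 670 with the DESeq2 test, 193 with at least 10 counts in every library, 77 with all 35 libraries in the fit, 139 with library totals and 627 without brain replicates 8 and 9. Genes lower numbered 1744 with DESeq2, 1119 with voom quality weights, 1282 with no low-count filter, 52 with at least 10 counts and 979 without brain replicates 8 and 9. Leaving out 1 library at a time gave 251 to 489 higher and 426 to 557 lower. The stricter count filter removed most lower genes from testing, since 418 of them had 0 counts in a brain library; otherwise the cause was not tested. Of 95 named genes, 94 kept their direction and side of the threshold with DESeq2 size factors, 93 with DESeq2, 87 with voom, 95 with rounded expected counts, 90 without brain replicates 8 and 9, 72 with library totals and 56 with all 35 libraries. Of the 82 past the threshold, 65 stayed called whichever of the 11 libraries was left out, and Atf3, Klra3 and Klra1 stayed called in the 6 such fits that tested them. The sign turned for the log2 fold change of Gimap4 (-0.004 with at least 10 counts, -0.177 with library totals), that of Gimap6 (-0.051 and -0.220), the log2 fold change of Acadl (-0.110 with voom, -0.142 with library totals, -0.198 without brain replicates 8 and 9) and the log2 fold change of Cd200r1 (-1.404 with voom); none of these 4 had passed. No paired analysis was possible because brain and spleen libraries share no replicate numbers. Depth limits what can be said of sparse genes, since a floor of 3 counts equals 0.217 CPM in brain and 0.239 CPM in spleen.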

Other observations

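Unstimulated brain cells of 2 other groups, young males (n = 5) and aged females (n = 5), are set beside the aged male libraries on 1 scaling of all 21 libraries, as means with SD. No test was made, since the spleen libraries would serve every comparison. Nr4a3 averaged 731 ± 137 CPM in aged male brain, 513 ± 593 CPM in young male brain and 501 ± 160 CPM in aged female brain, against 8.61 ± 3.48 CPM in aged male spleen. Tnfaip3 averaged 1979 ± 375, 1705 ± 363 and 1148 ± 236 CPM in the same 3 brain groups, against 91.5 ± 5.91 CPM in spleen. Hspa1a averaged 1355 ± 511 CPM in aged male, 904 ± 877 CPM in young male and 2438 ± 1293 CPM in aged female brain, against 63.9 ± 57.0 CPM in spleen. Aged female brain was nearer to spleen for 2 other genes. Pdcd1 averaged 158 ± 88.5, 101 ± 44.4 and 42.2 ± 23.9 CPM in the same 3 brain groups, against 24.7 ± 14.6 CPM in spleen. Cxcr4 averaged 230 ± 117, 221 ± 122 and 75.9 ± 40.6 CPM, against 21.7 ± 5.07 CPM in spleen.

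Genes low in aged male brain varied in the other brain groups. Actn1 averaged 3.19 ± 3.56 CPM in aged male, 67.6 ± 44.4 CPM in young male and 11.2 ± 9.56 CPM in aged female brain, against 64.0 ± 22.7 CPM in aged male spleen. Slamf6 averaged 0.283 ± 0.571, 15.8 ± 14.6 and 2.16 ± 4.07 CPM in these brain groups, against 32.3 ± 12.6 CPM in spleen. Klrg1 averaged 0.0092 ± 0.0224, 7.59 ± 13.7 and 1.91 ± 4.26 CPM, against 8.74 ± 4.17 CPM in spleen, with 0 counts in 3 of 5 young male brain libraries. S1pr5 averaged 0.0405 ± 0.0522, 7.99 ± 12.8 and 0.1 ± 0.224 CPM, against 10.7 ± 9.81 CPM in spleen, with 0 counts in 2 of 5 young male brain libraries. Penk had 0 counts in every male brain library and averaged 2.75 ± 2.61 CPM in aged female brain, against 39.4 ± 3.80 CPM in spleen. Ttr averaged 233 ± 280 CPM in aged male, 61.8 ± 112 CPM in young male and 2.03 ± 3.12 CPM in aged female brain, against 0.0101 ± 0.0226 CPM in spleen.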
